A study of Homo sapiens with 6 samples.

Results

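ZNF genes of chromosome 19 code for zinc finger proteins of the C2H2 type, and they were described here after knockdown of the long non-coding RNA HOTAIR. The members are the protein-coding genes of chromosome 19 whose symbol is ZNF, a number and at most 1 letter, with a mean normalized count of at least 20 over the libraries. The rule kept 122 of the 193 such genes listed, among 12098 features with a mean of at least 20 and 19589 features in all. Of the other 71 genes, 2 had a mean of 0. The members were thus selected on their mean normalized count, so their level is a description and no finding. ZNF799 (18.7), ZNF497 (17.7) and ZNF233 (16.2) lay just under that mean, and ZNF229 (21.1), ZNF615 (21.4) and ZNF441 (21.5) just above it, all as mean normalized counts.

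The study transfected cells labelled HepG2, a line from a human liver carcinoma, with small interfering RNA against HOTAIR (siHOTAIR, 3 labelled libraries) or with a control siRNA (siNC, 3 labelled libraries). Ribosomal RNA was removed from total RNA, and strand-specific libraries were sequenced. The labels do not say whether libraries of a group came from separate cultures, so p-values measure only the spread between libraries, which may be technical. The question was which transcripts change when HOTAIR is reduced.

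The deposited tables compare the groups and carry a mean, a log2 fold change and p-values for each feature, with no value per library. Each mean, however, is a sum of whole reads from 5 libraries, each divided by its size factor, so the reads of each library could be recovered. By the sign of the deposited fold change of features with a single read, 3 of the 5 libraries were siHOTAIR and 2 were siNC. A further library labelled siNC is unaccounted for in the means, and the recovered libraries cannot be tied to replicate numbers. Size factors ran from 0.888 to 1.19, and reads over all members from 13779 to 17080 in the siHOTAIR libraries, against 11869 and 16164 in the siNC libraries; the total depth is unknown.

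HOTAIR itself had 62.4, 78.2 and 59.7 normalized counts in the siHOTAIR libraries, against 202 and 150 in the siNC libraries. Markers of hepatocytes were at or near 0 for the labelled cell type. Of 19 hepatocyte markers, 11 had a row and 3 reached a mean of 20, while the apolipoprotein APOA1 had a mean of 0.382, the secreted inhibitor SERPINA1 0.167 and the liver factor HNF4A 5.06 normalized counts. KRT17, a keratin, had a mean of 2600, and COL1A1, a collagen chain, 1590 normalized counts. The libraries are therefore called by their labels only. Of 5 fibroblast markers with a row, 3 rose and 0 fell (summed mean 1890 normalized counts over both groups), and of 5 endothelial markers 2 rose and 0 fell (1700). Of 4 leukocyte markers 0 rose and 1 fell (165), and of 4 squamous markers 0 rose and 1 fell (4910), the one that fell being KRT17 (-0.31 per the authors' deposited table). No hepatocyte marker rose or fell (357). The part of these markers in the results was not tested.

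C2H2 zinc finger proteins bind DNA through repeated fingers, each held by a zinc ion. Many genes of this family on chromosome 19 lie side by side in clusters that grew by duplication, and many encode a KRAB domain at the start of the protein. The KRAB domain recruits the corepressor TRIM28, which brings the histone methyltransferase SETDB1 and HP1 proteins to DNA, often at transposable elements. Near-identical copies can share reads, and the sources used here do not give how such reads were counted, so values of close paralogs are uncertain.

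Promoters of 6 called members are printed, picked with the calls known. ZNF416, ZNF530 and ZNF776 lie in 1 run of neighbours and rose, ZNF548 lies in the run beside it and fell, and ZNF317 and ZNF581 had the smallest p among those that rose. Not printed are ZNF875 and ZNF296, which rose more than ZNF776, and ZNF587, which also rose in the run of ZNF776. The printed set does not stand for all members that rose. The windows come from RefSeq with the build GRCh38.p14, and each spans 250 bases before to 50 after the start of the gene, read 5′ to 3′ on the gene's strand. Capitals mark ACTTCCG, which holds the core that ETS family factors bind, and ACTACANNNCCCA, which resembles the site of the factor ZNF143.
ZNF416 (chr19:57578862-57579161, minus strand): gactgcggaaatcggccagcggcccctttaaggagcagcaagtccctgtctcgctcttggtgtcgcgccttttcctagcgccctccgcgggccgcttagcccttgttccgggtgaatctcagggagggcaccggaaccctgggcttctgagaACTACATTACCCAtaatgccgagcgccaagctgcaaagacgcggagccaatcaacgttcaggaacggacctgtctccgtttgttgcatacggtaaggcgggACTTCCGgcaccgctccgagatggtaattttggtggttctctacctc
ZNF530 (chr19:57599635-57599934, plus strand): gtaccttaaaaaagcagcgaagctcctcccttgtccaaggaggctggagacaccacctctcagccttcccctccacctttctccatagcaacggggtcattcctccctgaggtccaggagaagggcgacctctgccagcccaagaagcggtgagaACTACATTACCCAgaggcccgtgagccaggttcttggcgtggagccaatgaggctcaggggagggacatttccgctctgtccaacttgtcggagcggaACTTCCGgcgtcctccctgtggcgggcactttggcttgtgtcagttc
ZNF776 (chr19:57746565-57746864, plus strand): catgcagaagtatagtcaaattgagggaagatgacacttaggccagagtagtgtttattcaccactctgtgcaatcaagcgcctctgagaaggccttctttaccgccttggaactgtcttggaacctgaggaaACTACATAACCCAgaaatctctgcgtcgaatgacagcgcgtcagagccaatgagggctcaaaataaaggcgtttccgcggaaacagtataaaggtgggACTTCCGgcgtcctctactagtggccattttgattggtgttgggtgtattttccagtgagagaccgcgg
ZNF548 (chr19:57389604-57389903, plus strand): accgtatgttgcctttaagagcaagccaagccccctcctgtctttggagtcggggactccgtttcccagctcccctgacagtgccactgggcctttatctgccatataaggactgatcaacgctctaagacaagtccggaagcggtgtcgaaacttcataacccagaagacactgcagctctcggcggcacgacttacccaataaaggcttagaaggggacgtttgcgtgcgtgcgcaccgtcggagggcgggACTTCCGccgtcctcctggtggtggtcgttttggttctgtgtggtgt
ZNF317 (chr19:9140147-9140446, plus strand): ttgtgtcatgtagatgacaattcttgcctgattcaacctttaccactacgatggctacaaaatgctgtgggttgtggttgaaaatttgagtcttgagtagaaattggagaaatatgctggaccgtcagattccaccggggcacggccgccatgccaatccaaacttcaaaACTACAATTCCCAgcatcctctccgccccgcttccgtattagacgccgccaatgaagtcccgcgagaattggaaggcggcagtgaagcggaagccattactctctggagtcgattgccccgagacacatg
ZNF581 (chr19:55643399-55643698, plus strand): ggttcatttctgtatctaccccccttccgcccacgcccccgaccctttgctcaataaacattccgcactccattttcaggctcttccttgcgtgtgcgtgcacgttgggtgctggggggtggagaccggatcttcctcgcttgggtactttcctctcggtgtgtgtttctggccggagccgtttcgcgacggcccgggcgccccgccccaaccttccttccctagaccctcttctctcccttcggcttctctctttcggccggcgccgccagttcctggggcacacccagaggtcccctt

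The 3 printed promoters of 1 run hold both motifs in the same order. ACTACANNNCCCA starts 98, 95 and 117 bases before the gene start in ZNF416, ZNF530 and ZNF776. In ZNF416 and ZNF530, ACTTCCG begins 3 bases after the start, as it also does in ZNF548, whose window has no match to ACTACANNNCCCA; in ZNF776 it lies shortly before the start. ZNF317 has ACTACANNNCCCA alone, and the ZNF581 window holds neither.

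Both motifs were common in the promoters of the family. A RefSeq window was found for 111 of the 122 members, 139 windows in all. ACTTCCG, or CGGAAGT on the other strand, stood in 36.7% of the members' windows, against 6.83% of all windows of this length and 12% of windows of protein-coding genes with a mean of at least 20. ACTACANNNCCCA, or TGGGNNNTGTAGT, stood in 23.7% of the members' windows, against 1.64% and 3.03% in those sets. ZNF genes of other chromosomes lay between, with 19.5% for ACTTCCG and 6.0% for ACTACANNNCCCA. The CCAAT motif (ATTGG on the other strand) was in 54.0% of the members' windows and 34.6% of all windows, and GGGCGG was in 55.4% and 45.0%, counting its reverse complement CCGCCC as well. In windows of protein-coding genes with a mean of at least 20, CCAAT stood in 34.7% and GGGCGG in 67.1%, so that GGGCGG was less frequent in the members than in that set. The first pair of motifs was noticed on reading promoters of 10 called members, so their share among called members is a description. Among all words of that shape (6 letters, 3 free and 4 letters) ACTACANNNCCCA was the most frequent, in 33 of the same windows of the members. The word counted was the one most frequent in these windows. Its higher share in the members than in the other sets thus follows in part from that choice and is a description. Of 31 members with ACTACANNNCCCA, 10 rose and 1 fell; of 80 without it, 10 rose and 4 fell, where 23.2% of all features with a mean of at least 20 rose and 23.8% fell. Of 47 members with ACTTCCG, 8 rose and 2 fell, and of 64 without it, 12 rose and 3 fell. A match says only that these letters stand in the window.

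After HOTAIR knockdown, 20 of the 122 members rose and 5 fell per the authors' deposited table at an adjusted p under 0.05, and 97 did not pass. The share of members called was 20.5%, against 47.0% of all 12098 features with a mean of at least 20, of which 23.2% rose and 23.8% fell. In these bulk samples, fewer cells with a transcript and less of it per cell cannot be told apart. An unadjusted p under 0.05 was given for 34 of the 122 members per the authors' deposited table. The share of all features at that cut was not taken, but it cannot be under the 47.0% called at the adjusted one. The members' log2 fold changes (log2 of siHOTAIR over siNC, log2 changes for short) per the authors' deposited table ran from -0.91 to 0.84, so that 0 members were called and changed 2-fold, against 5.79% of all features. The call words of the authors' other deposited table marked 0 members, against 5.26% of features. Their median was 0.12, against 0.00 over all features, and 79 members (64.8%) lay above 0, against 50.3% of features. Of the 69 genes of the family with a mean above 0 and under 20, 35 had an adjusted p and 0 were called. Of all 7363 features of such means, 2499 had an adjusted p and 213 (2.89% of the 7363) were called.

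The share of members called varied with their mean. With a mean of at least 200, 12 of 18 members rose and 0 fell per the authors' deposited table, against 30.1% of features that rose and 25.5% that fell at such means (55.6% called). With a mean of 20 to 50, 2 of 45 rose and 1 fell, or 6.67% called against 23.2% of features (9.42% rose and 13.8% fell). With a mean of 50 to 100, 5 of 36 rose and 2 fell, or 19.4% against 35.4% (13.1% rose and 22.3% fell). With a mean of 100 to 200, 1 of 23 rose and 2 fell, or 13% against 41.3% (15.4% rose and 25.9% fell). The median absolute log2 change per the authors' deposited table was 0.145 for members with a mean of 100 to 200, against 0.316 for all features of such means, with median standard errors of 0.177 and 0.166. At means of at least 200 it was 0.312 for members and 0.275 for features. The classes were set after values were seen.

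**Figure D1:**
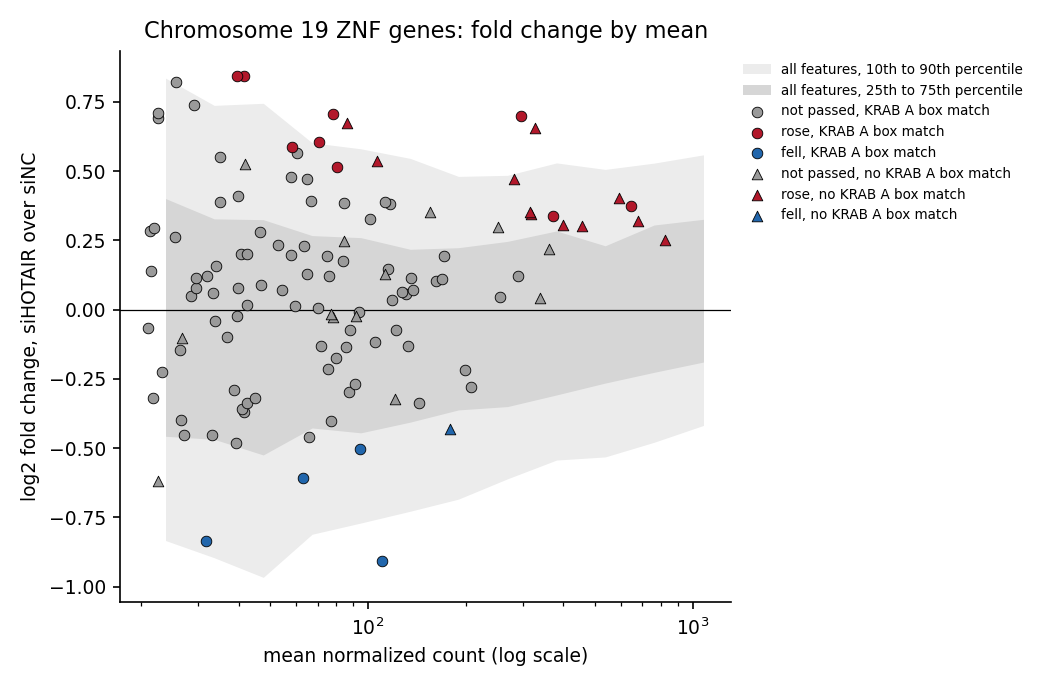
Log2 fold change of siHOTAIR over siNC per the authors' deposited table (vertical axis) against the mean normalized count on a log scale, 1 point for each of the 122 members; circles have a KRAB A box match, triangles have none, red rose, blue fell and grey did not pass. Grey bands give percentiles of all features. Above a mean of 200, 12 of 18 members are red and none is blue.

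**Figure D2:**
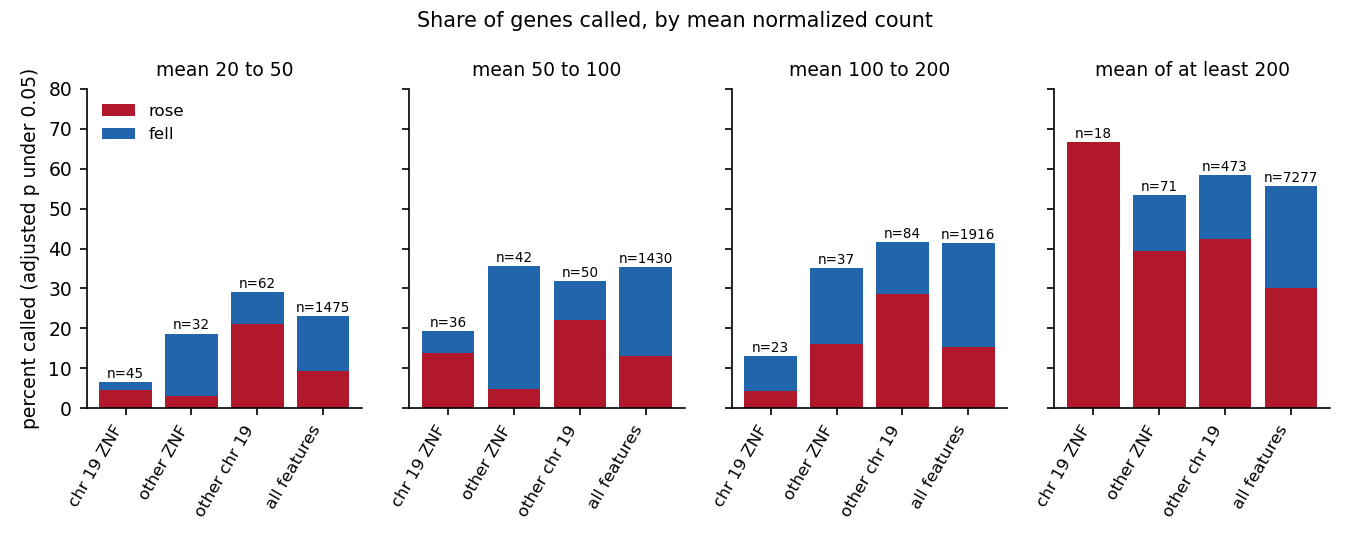
Percent of genes that rose (red) or fell (blue) at an adjusted p under 0.05, in 4 classes of the mean, for the members, ZNF genes of other chromosomes, other protein-coding genes of chromosome 19 and all features, with the number of genes above each bar. The members' bar is the lowest of its panel in the 3 classes under 200 and the highest in the class of at least 200.

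The 3 largest changes among the members that rose, in ZNF530, ZNF416 and ZNF875, belonged to genes with a mean under 100. ZNF530 had 50.2, 56.7 and 39.4 normalized counts in siHOTAIR libraries, against 30.1 and 21.3 in siNC libraries. Its log2 change per the authors' deposited table was 0.84 (SE 0.305, adjusted p 0.0167). ZNF416, its neighbour, had 53.7, 56.7 and 42.8 normalized counts in siHOTAIR libraries, against 25.95 and 29.1 in siNC libraries, with 0.84 (SE 0.294, adjusted p 0.0129) per the authors' deposited table. In both genes every siHOTAIR library lay above both siNC libraries.

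ZNF776 of the same run had 89.2, 85.6 and 72.1 normalized counts in siHOTAIR libraries, against 50.2 and 57.1 in siNC libraries. ZNF875 had 89.2, 91.0 and 99.1 in siHOTAIR libraries, against 57.8 and 53.8 in siNC libraries. ZNF296, whose mouse counterpart is known as a partner of the reprogramming factor Klf4, had 98.8, 103 and 104 normalized counts in siHOTAIR libraries, against 62.8 and 62.7 in siNC libraries. The groups of these genes did not overlap, and the log2 changes per the authors' deposited table were 0.60 for ZNF776, 0.71 for ZNF875 and 0.67 for ZNF296. Their adjusted p-values per the authors' deposited table were 0.0240, 0.00447 and 0.00449.

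ZNF230 had 75.4, 63.2 and 64.2 normalized counts in siHOTAIR libraries, against 47.7 and 40.3 in siNC libraries. ZNF714 had 117, 120 and 130 in siHOTAIR libraries, against 90.4 and 75.1 in siNC libraries. ZNF180 had 87.5, 97.4 and 90.1 in siHOTAIR libraries, against 69.5 and 56.0 in siNC libraries. All of these siHOTAIR libraries were above the siNC libraries of the same gene, with log2 changes of 0.59, 0.54 and 0.52 per the authors' deposited table.

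The smallest p-values among members that rose belonged to genes with higher means. The authors' deposited table gives ZNF317 a log2 change of 0.70 (SE 0.126, adjusted p 2.62e-07) and ZNF581 one of 0.65 (SE 0.123, adjusted p 8.01e-07). ZNF317 had 340, 331 and 377 normalized counts in siHOTAIR libraries, against 205 and 223 in siNC libraries. ZNF581 had 406, 374 and 365 in siHOTAIR libraries, against 224 and 262 in siNC libraries. For these 2 genes and 14 others with a mean above 200, several sets of reads gave the same mean, and the set kept was the one near the deposited fold change with similar libraries, so their library values are no independent check of it.

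ZNF146, which consists almost wholly of zinc fingers, had 652, 680 and 634 normalized counts in siHOTAIR libraries, against 477 and 515 in siNC libraries, with a log2 change of 0.40 (SE 0.0951, adjusted p 0.000131) per the authors' deposited table. ZNF574 had 302, 321 and 330 in siHOTAIR libraries, against 225 and 231 in siNC libraries, and 0.47 (SE 0.124, adjusted p 0.000654) per the authors' deposited table. The members with the highest means, ZNF580, ZNF787, ZNF587, ZNF146 and ZNF579, all rose, by 0.25 to 0.40 on the log2 scale per the authors' deposited table. ZNF544, ZNF428, ZNF628 and ZNF358 made up the rest of those that rose, with 0.30 to 0.35 per the authors' deposited table.

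ZNF548 fell most and had the smallest p of the 5 members that fell. It had 84.0, 76.0 and 84.5 normalized counts in siHOTAIR libraries, against 173 and 136 in siNC libraries. In the authors' deposited table it was 1.87 times lower in siHOTAIR (log2 change -0.91, SE 0.187, adjusted p 9.15e-06). ZNF432 had 23.4, 19.3 and 28.2 normalized counts in siHOTAIR libraries, against 48.6 and 39.2 in siNC libraries, with -0.84 (SE 0.317, adjusted p 0.0237) per the authors' deposited table. In both, every siHOTAIR library was below both siNC libraries.

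ZNF45 had 58.9, 47.1 and 48.4 normalized counts in siHOTAIR libraries, against 77.0 and 84.0 in siNC libraries. ZNF761 had 72.8, 79.2 and 90.1 in siHOTAIR libraries, against 125 and 104 in siNC libraries. ZNF507 had 161, 157 and 153 in siHOTAIR libraries, against 216 and 210 in siNC libraries. These groups did not overlap either, and the authors' deposited table gives log2 changes of -0.61, -0.50 and -0.43, with adjusted p-values of 0.0257, 0.0302 and 0.0103.

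**Figure D3:**
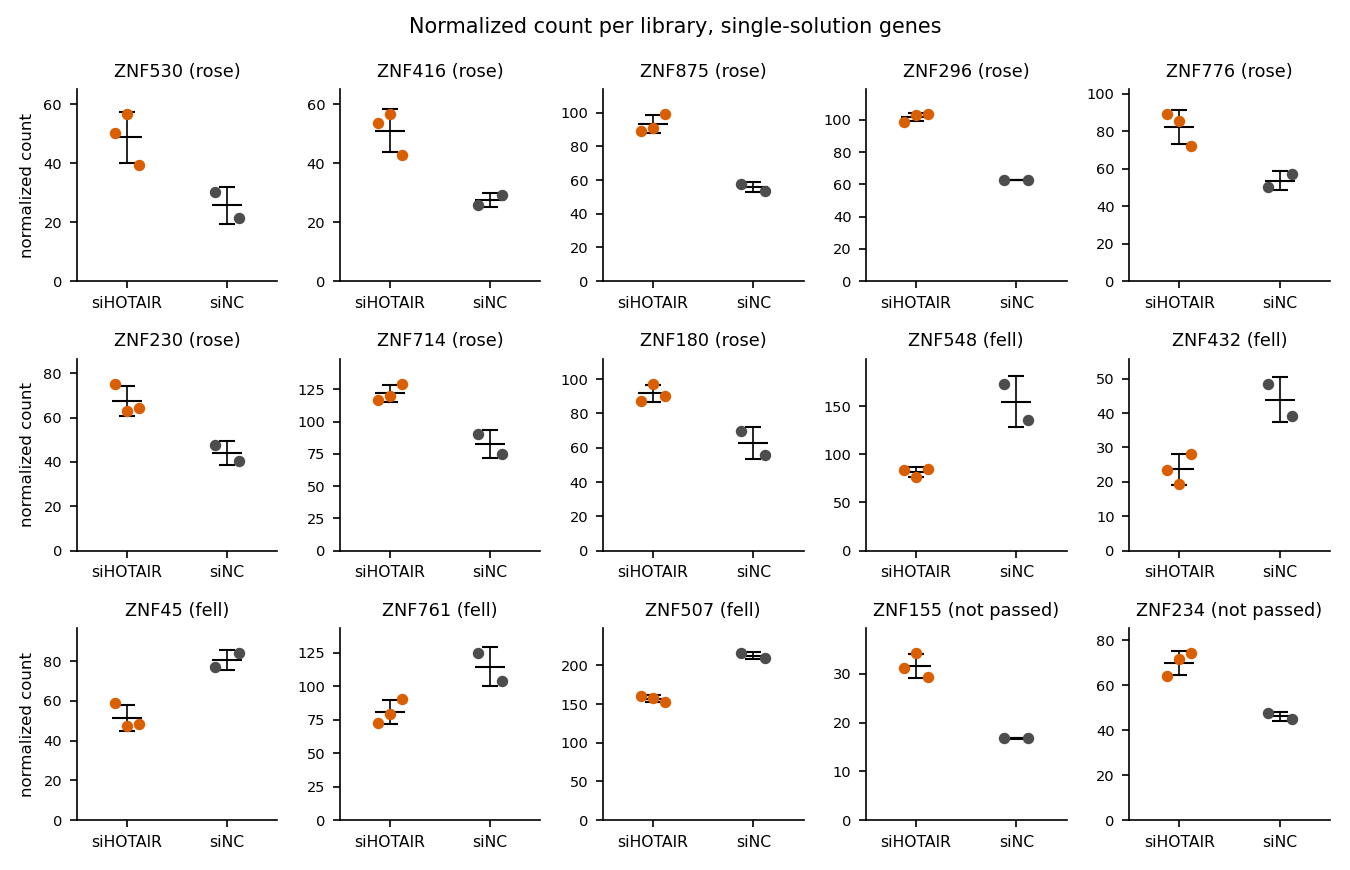
Normalized counts of 15 members with a single set of reads behind their mean, 1 point per library (3 siHOTAIR at the left, 2 siNC at the right of each panel), with the mean and SD of each group; each axis starts at 0. In all 15 panels the groups do not overlap, including ZNF155 and ZNF234, which did not pass. The choice of genes fixed this, since the groups of all 25 called members do not overlap. For the 12 of those 25 with a mean of at least 200, not shown here, the reads were picked to lie near the deposited fold change. ZNF155 and ZNF234 were picked with their values known. Of all features with a mean of 20 to 200, the groups of 61.2% do not overlap.

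Of 10 members named for a known role, 2 rose (ZNF146 and ZNF296) and 1 fell (ZNF45) per the authors' deposited table. The share called was 20.5% of all members and 47.0% of all features with a mean of at least 20. The difference was not tested. The 7 members of that list that were not called are described next. ZNF274, which recruits SETDB1 to the 3′ ends of zinc finger genes, had 230, 284 and 265 normalized counts in siHOTAIR libraries, against 250 and 251 in siNC libraries. ZNF331, an imprinted gene, had 297, 290 and 315 in siHOTAIR libraries, against 295 and 255 in siNC libraries. The groups of both overlap, with log2 changes of 0.05 and 0.12 per the authors' deposited table.

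ZNF224, a KRAB repressor of the aldolase A gene, had 31.2, 21.4 and 16.9 normalized counts in siHOTAIR libraries, against 31.8 and 34.7 in siNC libraries, with an adjusted p of 0.305 per the authors' deposited table. ZNF675, known to restrain TRAF6 signalling, had 56.3, 62.1 and 62.0 in siHOTAIR libraries, against 65.3 and 52.7 in siNC libraries, a change of 0.01 on the log2 scale per the authors' deposited table. ZNF175, known to restrain HIV transcription in macrophages, had 41.6, 29.98 and 42.8 in siHOTAIR libraries, against 53.6 and 43.7 in siNC libraries, with an adjusted p of 0.364 per the authors' deposited table. ZNF460 had 66.7, 54.6 and 83.4 in siHOTAIR libraries, against 92.9 and 88.5 in siNC libraries (adjusted p 0.136 per the authors' deposited table), and ZNF8 had 123, 122 and 140 in siHOTAIR libraries, against 147 and 133 in siNC libraries. The siNC libraries were the higher ones for ZNF224, ZNF175 and ZNF460. The authors' deposited table calls none of these, while the limma fit described with the recovered reads called ZNF460 (limma log2 change -0.43, limma adjusted p 0.0486).

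The recovered reads gave a view of the 104 members with a mean of 20 to 200 that uses the deposited fold changes only to assign libraries to groups. All siHOTAIR libraries lay above both siNC libraries in 33 members (31.7%, against 25.6% of the 4821 features of such means) and below both in 21 (20.2%, against 35.7%). The groups thus did not overlap in 51.9% of members, against 61.2% of features. A limma fit across those features, with a mean trend and Benjamini-Hochberg adjustment, called 20 members as risen and 7 as fallen, 26% in all, against 17.8%, 26.1% and 43.9% of features. Per the authors' deposited table, 12.5% of these members and 34.0% of all features of such means were called, so limma called more in both. The recovered reads come from the authors' own means, so a shared direction is no independent check. The 13 members of this range called per the authors' deposited table were all called by limma in the same direction, and 14 more were called by limma only. ZNF155 is one of these, with 31.2, 34.3 and 29.3 normalized counts in siHOTAIR libraries, against 16.7 and 16.8 in siNC libraries (limma adjusted p 0.0117, adjusted p 0.0514 per the authors' deposited table). ZNF234, with 64.1, 71.7 and 74.4 in siHOTAIR libraries, against 47.7 and 44.8 in siNC libraries, is another (limma adjusted p 0.011, adjusted p 0.0503 per the authors' deposited table). Leaving out the library called siNC_b here (the letters are arbitrary) leaves no replicate in siNC, so the number called in that fit is not given.

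Summed over all 122 members, the normalized counts were 14796, 15132 and 15523 in siHOTAIR libraries, against 13533 and 13298 in siNC libraries. The siHOTAIR sums were all above the siNC sums, but they partly restate the deposited fold changes, since reads of 16 members above a mean of 200 were picked to lie near them. Over the 104 members with a mean up to 200, the sums were 7316, 7273 and 7429 in siHOTAIR libraries, against 7368 and 6839 in siNC libraries, and these groups overlap. The sums by KRAB class hold the picked members too. Members with no KRAB match summed to 6530, 6918 and 6947 in siHOTAIR libraries, against 5480 and 5762 in siNC libraries. Members with a match summed to 8266, 8214 and 8575 in siHOTAIR libraries, against 8053 and 7536 in siNC libraries.

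A KRAB A box, the part of the domain that binds TRIM28, was found in the translated GENCODE 29 proteins of 97 members and not in those of 25. Of the 25 without a match, 11 rose and 1 fell per the authors' deposited table, with a median log2 change of 0.30; of all features, 23.2% rose and 23.8% fell. Of the 97 with a match, 9 rose and 4 fell per the authors' deposited table, with a median of 0.08. The mean moved with this split: the median mean was 179 normalized counts without a match and 60.5 with one. At a mean of at least 200, 9 of 12 without a match and 3 of 6 with one rose, and under a mean of 100, 1 of 8 without a match and 6 of 73 with one rose, per the authors' deposited table. Under a mean of 200, the order of the medians was the other way. The median there was -0.02 for 13 members without a match, of which 46.2% lay above 0. For 91 members with a match it was 0.08, with 61.5% above 0. Of all features, 30.1% rose at a mean of at least 200, 13.1% at 50 to 100 and 9.42% at 20 to 50. The part of the level in this difference was not tested. The box was defined in 3 ways in turn, each seen beside the calls, and the last is given; the earlier ones left 29 members without a box, of which 12 rose and 1 fell, and 46, of which 14 rose and 1 fell. Among ZNF genes of other chromosomes, 26 of 100 without a match rose and 22 fell, and 11 of 82 with a match rose and 13 fell, per the authors' deposited table.

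The members held a median of 12 C2H2 fingers in their longest protein, with a range of 0 to 26. Those that rose had a median of 10.5 fingers and those that fell 15. Of 11 members with at most 5 fingers, 3 rose and 0 fell, and of 28 with at least 16, 2 rose and 2 fell, per the authors' deposited table. The 27.3% that rose among those with few fingers is near the 23.2% of all features.

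Calls in both directions stood in and beside runs of neighbours. Taking runs of neighbouring C2H2 genes with at least 3 members, 15 runs held 93 members. In the run from ZNF772 to ZNF256, 4 of 12 members rose (ZNF416, ZNF530, ZNF776 and ZNF587), 0 fell and 10 lay above 0 per the authors' deposited table. Of all features with a mean of at least 20, 23.2% rose, 23.8% fell and 50.3% lay above 0. That run held the most risen members of the 15 runs and is described with this known. No run was tested. ZNF134 and ZNF586 of that run had 0.52 and 0.18, and ZNF550 and ZNF552 had -0.17 and -0.13, without a call, per the authors' deposited table. The run beside it, from ZNF548 to ZNF749, held 3 members, with -0.91 for ZNF548, 0.16 for ZNF17 and -0.13 for ZNF749 per the authors' deposited table.

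The run from ZNF283 to ZNF180 held most members, 16, of which ZNF230 and ZNF180 rose and ZNF45 fell per the authors' deposited table. Its log2 changes ran from -0.61 to 0.82, with a median of 0.07. In the run from ZNF565 to ZNF793, ZNF146 and ZNF875 rose and the median of 7 members was 0.39 per the authors' deposited table. In the run from ZNF524 to ZNF580, ZNF581 and ZNF580 rose, while ZNF524 had -0.32 without a call per the authors' deposited table. The run from ZNF627 to ZNF791 held 10 members, of which 0 rose and 0 fell at that threshold. Over all features with a mean of at least 20, 23.2% rose and 23.8% fell. At a mean of 20 to under 200, these shares were 12.9% and 21.1%.

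**Figure D4:**
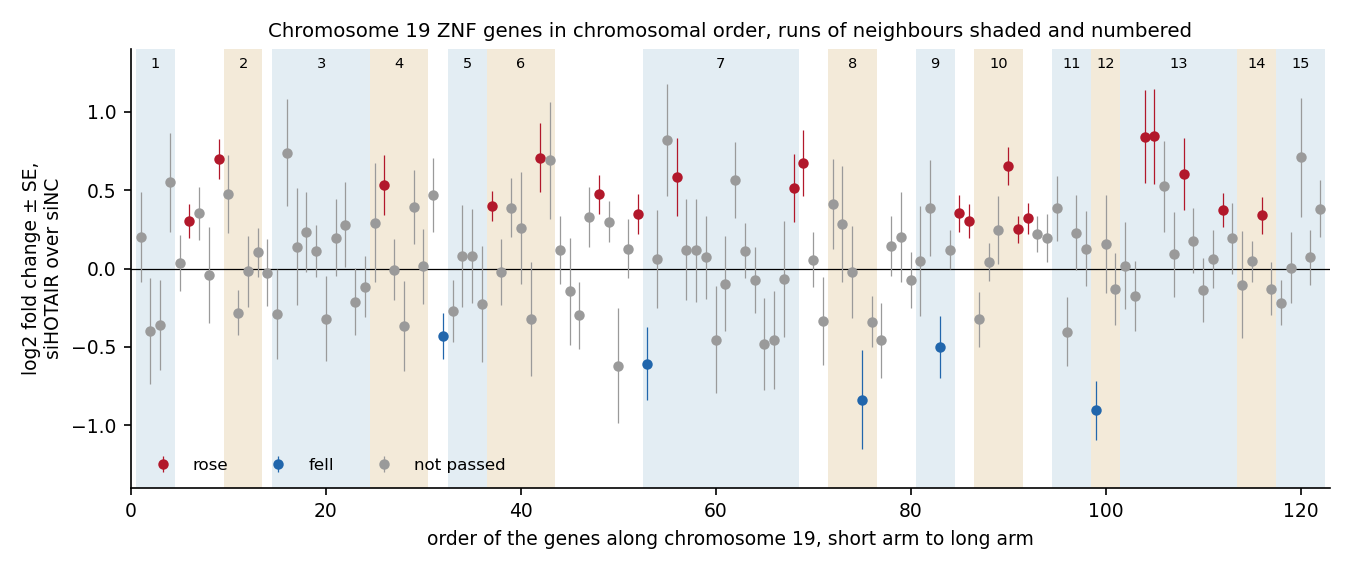
Log2 fold change of siHOTAIR over siNC with its standard error per the authors' deposited table for the 122 members in their order along chromosome 19; red rose, blue fell, grey did not pass, and shading with numbers marks the 15 runs. Of the 12 members of run 13 (ZNF772 to ZNF256) 4 rose, against 23.2% of all features with a mean of at least 20. Run 12 beside it holds ZNF548, which fell.

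Other genes of chromosome 19 also had a median above 0. A larger share of them was called over all means of at least 20 and at means under 200. Of 669 other protein-coding genes of chromosome 19, 249 rose and 96 fell per the authors' deposited table, with a median of 0.16 and 64.7% above 0, against 64.8% of the members. The share that rose was 16.4% in members and 37.2% in those other genes, and 7.69% against 24.5% at means under 200. At means of at least 200 the order was the other way, with 66.7% of 18 members against 42.5% of 473 such genes. Of ZNF genes of other chromosomes, 39.4% rose at means of at least 200. The median mean was 73.3 normalized counts in members and 464 in the other genes of chromosome 19. Of 182 ZNF genes of other chromosomes, 37 rose and 35 fell per the authors' deposited table, with a median of 0.02. Chromosome 19 as a whole had the highest median log2 change of 23 chromosomes per the authors' deposited table, 0.146, followed by chromosome 22 with 0.125, and chromosome 18 had the lowest, -0.096. The difference between these sets was not tested. Of the chromosome 19 genes with symbols such as ZFP or ZSCAN, 4 had a mean of at least 20. The 3 C2H2 genes among them, ZSCAN22, ZFP14 and ZFP30, did not pass. ZFP36, which the symbol rule took in but which codes for an RNA-binding protein with fingers of another type, fell (-1.02 per the authors' deposited table).

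The TRIM28 corepressor pathway was listed with 31 genes, and 9 rose and 7 fell per the authors' deposited table, or 16 called (51.6%), against 47.0% of all features. The median mean of the list was 1010 normalized counts, and 55.6% of features with a mean of at least 200 were called. The share called in the list was thus not above that of features with such means. CBX5, which codes for HP1 alpha, was 5.82 times lower in siHOTAIR (log2 change -2.54, SE 0.0835) per the authors' deposited table. Of the other HP1 genes, CBX1 fell (-0.47) and CBX3 had -0.01 without a call per the authors' deposited table. TRIM28 rose by 0.30 (SE 0.070, adjusted p 9.97e-05) per the authors' deposited table. SETDB1 had -0.15 without a call (adjusted p 0.200) per the authors' deposited table. MTA1, a subunit of the NuRD remodelling complex, rose by 1.20, the histone chaperone gene DAXX by 0.74 and MORC2, which acts with the HUSH complex, by 0.68 per the authors' deposited table. PPHLN1, a HUSH subunit, fell by 0.75 and CHAF1A rose by 0.45 per the authors' deposited table. CBX5, MTA1, DAXX, MORC2, PPHLN1 and CHAF1A are the genes of the list with the smallest p, so they do not stand for the list.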

How the data were processed

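RNA was sequenced from libraries labelled siHOTAIR and siNC (3 each per the labels). The authors used HTSeq 0.6.1, DESeq, DESeq2 and the build hg19, per the submitters' processing notes; the sources used here name no aligner. The authors' deposited tables hold a mean signal per feature (counts divided by size factors), a log2 fold change that is slightly shrunken, a test score and p-values; a further table carries call words. The planned edgeR test on counts was not run, because the files analysed hold no count per library. The members, gene lists, mean classes and promoter motifs were chosen with earlier results of these data known.

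Reads per library were recovered from the means by lattice reduction. Every one of the 12184 features with a mean up to 200, means of 0 left out, had 1 solution only; the limit was 100 in a first run. On simulated reads, 240 of 240 features up to a mean of 200 were solved correctly, and 14 of 30 above it had a single solution. For 16 members above 200, the solution kept had a log2 ratio within 0.05 of the deposited one and a ratio of at most 2 between libraries of a group (1.6 was tried first); on simulated reads this kept 56 of 60, all of them right, at a dispersion of 0.02. Normalized counts are reads over size factors. limma 3.58.1 in R 4.3.3 was fitted to log2(normalized count + 1) of 4821 features with a mean of 20 to 200, two-sided. On simulated counts of those features with a dispersion of 0.02, it called 74 of 100 with a log2 change of 1, 14 of 100 with 0.6 and 5 of 4621 unchanged ones, with the recovered group sizes. RefSeq tables matched 19108 row IDs. The KRAB A box was found with a profile of 280 GENCODE 29 proteins (pyhmmer 0.12.3, E value up to 0.001), in place of RefSeq proteins; this was the third of 3 definitions. Named members were the 10 highest and 10 lowest called, the 5 smallest p in each direction, members with a known role, the 5 highest means and members of runs. ZNF155 and ZNF234 were picked for full description with their values known.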

Additional observations from a re-analysis of the deposited data

How the results depend on the processing

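Of 25 members called in the authors' deposited table (20 rose, 5 fell), 10 (9 and 1) passed an adjusted p of 0.01. Among the 25, 11 (8 and 3) also changed 1.5-fold. The shares of all features at 0.01 and at 1.5-fold were not taken, so these counts have no background. At 2-fold 0 (0 and 0) were left, against 5.79% of all features with a mean of at least 20. The call words of the authors' other deposited table marked 0 members in either direction, against 5.26% of those features. Counts under other minimum means or symbols stayed within 1.5 times. With limma on recovered reads (27 called, 20 rose, 7 fell), leaving out 1 library gave 9 to 24 called, 4 to 16 rose and 4 to 8 fell. The lowest count, 9 (4 rose, 5 fell), came without siNC_b; without siNC_a 4 fell, and without siHOTAIR_b 13 rose. Leaving out an siNC library leaves 1 in that group, which is assumed to vary like the other group. At an adjusted p of 0.01, an alternative added after seeing the data, 3 of 97 members with a KRAB match rose and 1 fell. Of 25 without a match, 6 rose and 0 fell. Of 198 alternative values for 18 of the 28 named members, 182 kept direction and call, 9 lost a call and 6 gained one (5 of them ZNF460, and ZNF224 without siHOTAIR_a). The other 10 named members, with means above 200 and among them ZNF317 and ZNF581, have the deposited value only. With limma, the call was lost without siHOTAIR_a for ZNF230. The other lost calls came from fits without an siNC library, for which only limma log2 changes are given. Without siNC_b these were 0.66 for ZNF530, 0.49 for ZNF230, 0.43 for ZNF714, 0.39 for ZNF180 and -0.58 for ZNF45. Without siNC_a they were 0.51 for ZNF776, -0.72 for ZNF432 and -0.37 for ZNF761. ZNF675 reversed, to -0.12 without siNC_b. The causes were not tested. No paired analysis was possible because the recovered libraries cannot be tied to replicate numbers. The total depth is unknown.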
